A study of Caenorhabditis elegans with 4 samples.

Results

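The ule genes of Caenorhabditis elegans encode proteins named for the lumen of the uterus, and their transcripts lay far below a mixed reference in wild-type L3 larvae, animals between hatching and adulthood. The members are the genes named ule- and a number, 5 in the RefSeq table of assembly WBcel235, found through the gene symbol of each probe updated by its Entrez number. The set was chosen by the mean ratio of ule-3, one of the lowest in these data, and the other members follow by name. Of the 5 genes, 4 had a probe, 1 probe each, among 14936 named genes tested and 19943 genes and probes in all. They are ule-1 (W03F11.1, chromosome I), ule-3 (D1054.11, chromosome V), ule-4 (C08F11.11, chromosome IV) and ule-5 (Y62H9A.6, chromosome X). No probe here carried the name ule-2 (F13G11.3, chromosome IV), and its transcript is not analysed here.

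In the hermaphrodite, the uterus is a tube of somatic gonad cells through which fertilised eggs pass on their way to the vulva. It is built during the later larval stages, and embryos fill its lumen in the adult. ULE proteins were described as proteins found in that lumen, in work on protein that gathers in the uterus of ageing animals after reproduction. L3 larvae have neither oocytes nor embryos.

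Each of 4 2-colour arrays, 1 per numbered L3 preparation, compared wild-type L3 RNA (second channel) with RNA of a wild-type mixed reference (first channel). The sources used here give neither the make-up of the reference, the sex of the animals nor the dyes, and do not say whether the 4 preparations were separate cultures. The 4 samples form 1 group, and the only comparison is that of L3 with the reference. The deposited values are log2 ratios, called likely L3 over reference because the labels name L3 first, so a value of -1 is a transcript 2-fold lower in L3. Each array was centred on its median. No spot intensities were used here. The precision is therefore limited by the number of arrays, and how far a probe stood above background is unknown. A ratio to a reference cannot tell fewer cells of a type from less RNA per cell, and does not show whether a transcript was absent from L3.

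All 4 measured ule genes lay below the reference in every preparation, and their means spanned log2 ratios of -5.98 to -3.18. The median of the 4 means was -4.93, against 0.02 over all genes and probes tested. The members were chosen with this contrast known, so their values are given as a description and without a test. In the limma fit over all genes, 4 of 4 were past an adjusted p of 0.05 on the low side, as were 10.8% of all genes and probes, and 0 on the high side, as were 8.31%. Nothing is read from these counts. A mean at least 8-fold lower was found for the same 4 and for 0.712% of all genes and probes. This 8-fold cut was not among those planned, and ule-1, at 9.08-fold lower, lay just past it.

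**Figure D1:**
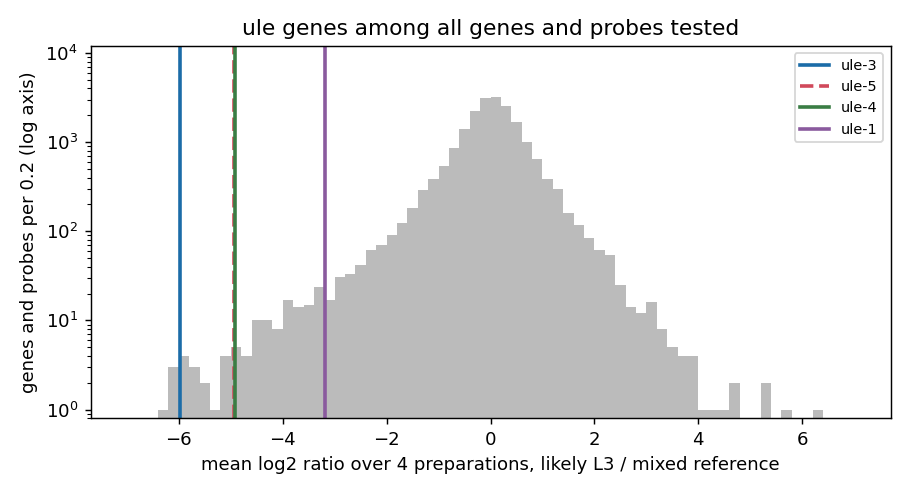
Number of genes and probes (log axis, in steps of 0.2) by mean log2 ratio over 4 preparations, likely L3 over mixed reference, with vertical lines at the means of the ule genes. The lines stand in the low tail, at -5.98 for ule-3, -4.94 for ule-5, -4.92 for ule-4 and -3.18 for ule-1.

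ule-3 was the lowest of the set. Its log2 ratios were -5.67, -6.80, -6.62 and -4.82 in preparations 1 to 4, with a mean of -5.98 ± 0.91 (SD, n = 4), which is 63.0-fold lower in L3. Preparations 2 and 3 were the lowest, and the highest, preparation 4, was still 28.3-fold lower. Among named genes ule-3 held rank 3 from the bottom, below it ZK813.3 at -6.06 ± 1.02 and the yolk protein gene vit-5 at -6.32 ± 0.93, and above it ZK813.1 at -5.80 ± 1.00. These neighbours in rank differ from ule-3 by less than the SD of any of them. On the single arrays ule-3 ranked 5, 5, 1 and 7 from the bottom. The deposited ratios behind these values were 0.020, 0.009, 0.010 and 0.035, in steps of 0.001 (to within 0.001 of a step). Rounding alone therefore leaves the preparation 2 value, before centring, anywhere between -6.88 and -6.72.

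ule-5 and ule-4 lay close together in the mean and differed in preparation 4. The log2 ratios of ule-5 were -4.74, -5.65, -5.24 and -4.15 in preparations 1 to 4, with a mean of -4.94 ± 0.65 (n = 4, 30.8-fold lower). Those of ule-4 were -4.01, -5.57, -4.45 and -5.63, with a mean of -4.92 ± 0.81 (n = 4, 30.2-fold lower). ule-5 was highest in preparation 4, whereas ule-4 was lowest there, at rank 2 from the bottom of that array. The difference ule-4 minus ule-5 averaged 0.03 ± 1.06 and ran from -1.49 to 0.79, so the order of this pair was not resolved.

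ule-1 was the least reduced and the most variable. Its log2 ratios were -4.11, -4.13, -3.48 and -1.01 in preparations 1 to 4, with a mean of -3.18 ± 1.48 (n = 4, 9.08-fold lower). Preparations 1 to 3 were between 11.2-fold and 17.6-fold lower, and preparation 4 was 2.02-fold lower. Counted from the bottom of the named genes, ule-1 stood at 0.296%, 0.698% and 0.600% of them on the arrays of preparations 1 to 3 and at 5.16% on that of preparation 4. The gap between preparation 4 and the next value was 0.790 of the whole range, which is under Dixon's critical value for 4 values. Without preparation 4 the mean was -3.91. Without preparation 1 the mean was -2.88 and ule-1 was no longer past the threshold (limma adjusted p = 0.0529).

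**Figure D2:**
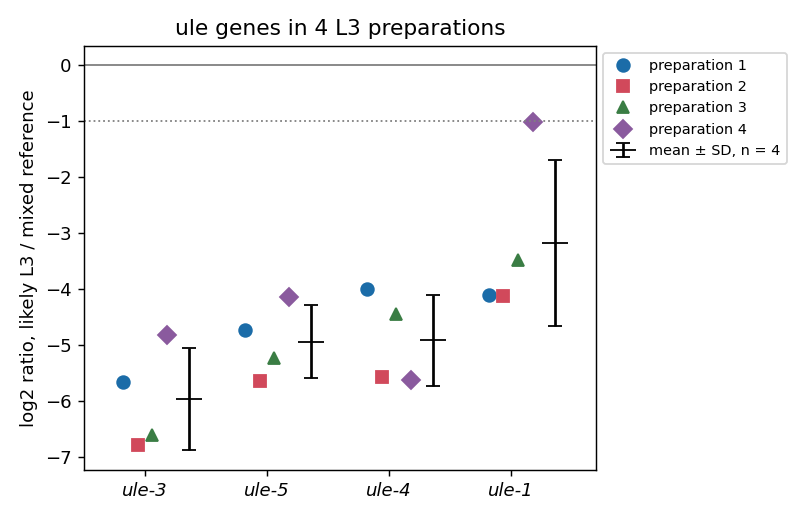
Log2 ratios of the 4 measured ule genes (vertical axis, likely L3 over mixed reference) in each preparation, with the mean and SD of 4 preparations as a bar. All points lie below 0, and preparation 4 of ule-1, at -1.01, stands highest.

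ule-3, ule-5 and ule-1 kept the same order on every array, while the place of ule-4 changed between arrays. ule-3 was the lowest of the 4 in preparations 1 to 3 and ule-4 in preparation 4. ule-1 was the highest in preparations 2 to 4, while in preparation 1 it was ule-4, and the difference ule-1 minus ule-4 was -0.09. ule-3 lay below ule-5 in 4 of 4 preparations, and the difference ule-3 minus ule-5 averaged -1.03 ± 0.30. ule-1 lay above ule-5 in 4 of 4, and the difference ule-1 minus ule-5 averaged 1.76 ± 1.04. These differences are between ratios, since levels cannot be compared between probes. The arrays of preparations 1 and 2 carry another month in their titles than those of preparations 3 and 4. In preparations 1 and 2 the means were -6.23 for ule-3, -5.19 for ule-5, -4.79 for ule-4 and -4.12 for ule-1. In preparations 3 and 4 they were -5.72, -4.69, -5.04 and -2.25 in the same order, and ule-1 was not past the threshold there (limma adjusted p = 0.0752).

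The genes whose 4 values were most like those of a ule gene included yolk, eggshell and oocyte genes. Likeness was measured by the root mean square difference of the log2 ratios over 4 arrays among 14562 other named genes with all 4 values. This distance includes the mean ratio, so genes near a strongly reduced gene are themselves strongly reduced by the measure. The 5 genes nearest to ule-3 all lay among the 7 lowest named genes. Whether these groups of genes stand out beyond that was not tested. Nearest to ule-3 was vit-2, a yolk protein gene, at a distance of 0.506 and a mean of -5.78 ± 0.76. Its values were -5.74, -6.80, -5.62 and -4.95 in preparations 1 to 4, so preparation 2 was lowest and preparation 4 highest in both genes. The array of preparation 2 had the widest spread and that of preparation 4 the narrowest, and the part of spread in this order was not tested. After vit-2, the nearest to ule-3 were stha-3 (distance 0.599, mean -5.43 ± 0.73), ZK813.1 (0.722), ZK813.3 (0.768) and D1054.10 (0.914, mean -5.68 ± 1.08). Nearest to ule-5 was pos-1, a gene of an RNA-binding protein supplied by the mother (distance 0.333, mean -4.96 ± 0.46). Its values are means of 2 probes that differed on single arrays. Before centring these lay at -5.80 and -4.51 in preparation 1, and at -3.80 and -5.01 in preparation 4. After pos-1, the nearest to ule-5 were the yolk protein gene vit-6 (0.345, mean -5.03 ± 0.84) and perm-4, required for the permeability barrier of the eggshell (0.426, mean -4.60 ± 0.84). Nearest to ule-4 were perm-2, another gene of that barrier (0.613, mean -4.83 ± 0.20), the C-type lectin gene clec-87 (0.642, mean -4.61 ± 0.19) and the eggshell proteoglycan gene cpg-2 (0.696, mean -4.72 ± 0.27). perm-2 measured -4.63, -4.76, -4.85 and -5.10 in preparations 1 to 4, so it was lowest in preparation 4 as ule-4 was, over a narrower range.

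The genes nearest to ule-1 by the same distance were F53H4.2 (distance 0.332), K07A1.6 (0.434) and T22B7.7 (0.493). F53H4.2 measured -3.50, -3.99, -3.39 and -1.21 in preparations 1 to 4, with a mean of -3.02 ± 1.24. K07A1.6 measured -4.32, -4.54, -3.62 and -1.74, with a mean of -3.55 ± 1.27. Without preparation 4 the means of F53H4.2 and K07A1.6 were -3.62 and -4.16. T22B7.7 had a mean of -2.91 ± 1.02. These genes were picked for their likeness to ule-1, so their shared order of preparations follows from the choice. The array of preparation 4 also had the narrowest spread of all arrays, with a median absolute deviation of 0.275 against 0.375, 0.573 and 0.384 in preparations 1 to 3, and what part this spread has in the ule-1 value was not tested beyond the scaling given next. When all arrays were scaled to a common spread, ule-1 was 7.99-fold lower in the mean, and ule-3 lay at -5.99, ule-5 at -4.97 and ule-4 at -5.09 on the log2 scale.

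Among the ule genes themselves, ule-4 and ule-5 were the closest pair, at a distance of 0.918, although the sign of their difference changed between preparations, and ule-3 and ule-5 followed at 1.07. In the order of likeness over the 14562 genes, ule-5 held place 9 from ule-4 and place 8 from ule-3. The places were farther in the other direction: from ule-5, ule-4 held place 26 and ule-3 place 34. For the remaining pair, ule-4 held place 16 from ule-3, and ule-3 place 55 from ule-4. ule-1 was far from all others, at place 99 from ule-3, 107 from ule-5 and 158 from ule-4. Seen from ule-1, ule-5 held place 460, ule-4 place 1091 and ule-3 place 2511.

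In gene order, ule-3, ule-4 and ule-5 each had at least 1 other strongly reduced gene within 5 protein-coding genes, and ule-1 had none. The nearest measured gene on each side was named by rule, and the window of 5 on each side was chosen after values were seen. Immediately beside ule-3 lies D1054.10, which measured -4.56, -7.16, -5.42 and -5.56 in preparations 1 to 4 (mean -5.68 ± 1.08, 51.1-fold lower). On its other side the nearest measured gene, the chemoreceptor gene srh-184, was at 0.37 ± 0.14 and did not pass the test. Smaller differences in that window were those of D1054.3 (-0.73), secs-1 (-0.77) and prp-38 (-0.65), which passed on the low side, and D1054.8 (1.10), which passed on the high side.

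ule-5 stands at the end of a run of 4 consecutive reduced genes on chromosome X. Directly beside it, stha-3 (Y62H9A.5) measured -5.03, -6.27, -5.77 and -4.63, with a mean of -5.43 ± 0.73. It was also among the genes nearest to ule-3 by the distance above, which includes the mean. Next come Y62H9A.4 at -4.52 ± 1.72 and Y62H9A.3 at -4.57 ± 1.27, each the mean of 2 probes. Both were highest in preparation 4, as ule-5 was, on the array with the narrowest spread. There the 2 probes of Y62H9A.4 lay at -1.69 and -3.29 before centring. The mean of Y62H9A.4 was -3.83 without preparation 2 and -5.20 without preparation 4. On the far side of ule-5, Y62H9A.7 lay at -0.24 ± 0.32, and the run ended there.

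Around ule-4 the neighbours moved in opposite directions. C08F11.12, 3 genes away, lay at -4.14 ± 0.80 and was 17.7-fold lower, with its lowest value in preparation 3. The UDP-glucuronosyltransferase gene ugt-22, 2 genes away on the other side, lay at 3.91 ± 0.89 and passed on the high side. The genes directly beside ule-4, the chemoreceptor gene srz-29 (0.80 ± 0.67) and C08F11.10 (0.12 ± 0.49), did not pass, although srz-29 passed without preparation 4 (limma adjusted p = 0.0376). Around ule-1, 0 of 7 measured neighbours passed, and their means ran from -0.01 to 0.94. They include W03F11.5 (0.43 ± 0.57), whose RefSeq gene model overlaps that of ule-1, and the guanylyl cyclase gene gcy-17 (0.23 ± 0.33). Whether a probe covers the overlap is not analysed here.

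**Figure D3:**
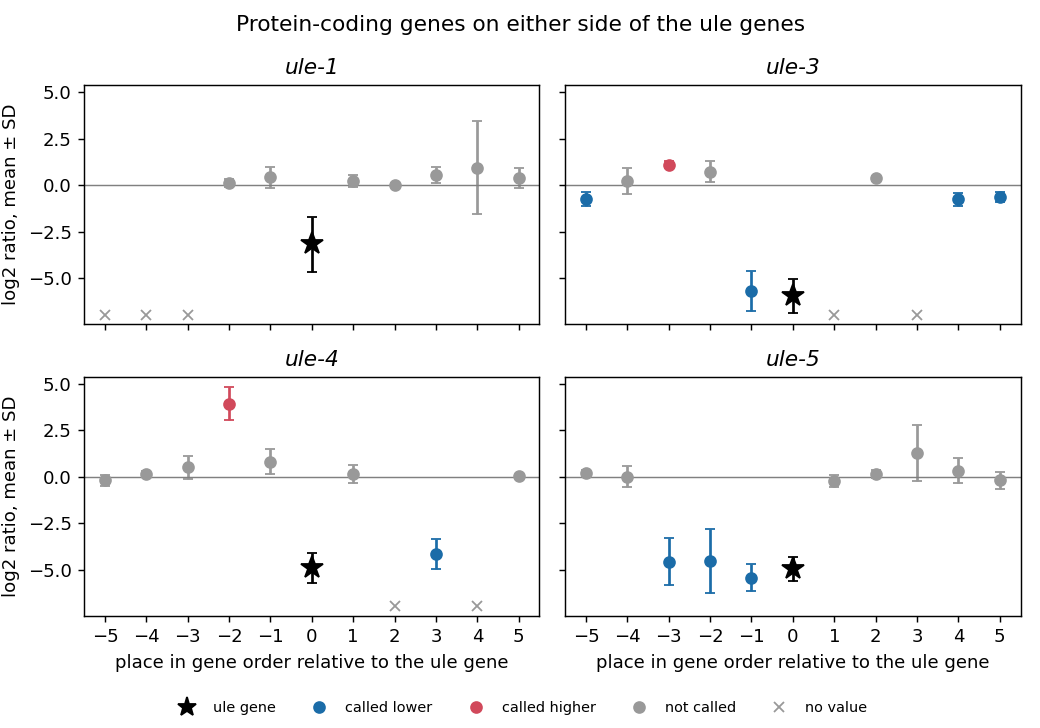
Mean log2 ratio with SD (likely L3 over mixed reference) of the 5 protein-coding genes on each side of a measured ule gene, by place in gene order and not to scale in distance. Stars are the ule genes, coloured points passed the limma threshold, and crosses at the lower edge are genes with no value here. D1054.10 beside ule-3 and the 3 genes on one side of ule-5 lie between -5.68 and -4.52.

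Over the 4 windows, 33 of 40 neighbours were measured, of which 8 passed on the low side and 2 on the high side in limma. The 8 are 24.2% of the neighbours, while 12.3% of the neighbours of all named genes passed on the low side. A mean at least 8-fold lower was found for 5 of the 33 (15.2%), namely D1054.10, C08F11.12, stha-3, Y62H9A.4 and Y62H9A.3. The same held for 4.68% of the neighbours of the 110 named genes outside the ule set that were themselves at least 8-fold lower. It held for 0.804% of the neighbours of all named genes. The 110 include the 5 genes just named, whose windows overlap those of the ule genes. In both comparison sets a gene is counted once for every window it falls in, so they are not separate from the ule windows. Neighbouring genes share the contrast that chose ule-3, and no test was made of these shares. The low-side count fell to 5 without preparation 1, 2 or 3, because D1054.3, secs-1 and prp-38 were lost (limma adjusted p from 0.0809 to 0.139).

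Transcripts of the egg lay low beside the ule genes, while 5 of 37 measured genes of the uterus, sheath, spermatheca and egg-laying cells passed on the low side and 4 on the high side, near the shares over all genes and probes (10.8% and 8.31%). The gene lists used here were chosen with earlier results of these data known. All 30 measured genes of yolk, eggshell and oocyte passed on the low side, as did 10.8% of all genes and probes. With 1 preparation left out, the low genes of all 7 lists fell from 36 to between 30 and 34. Genes of the egg lists were among those lost. The 4 of yolk and its receptor had a median of -5.40, with vit-5, vit-2 and vit-6 lowest and the receptor gene rme-2 at -3.68 ± 0.57. The 13 of eggshell and perivitelline layer had a median of -3.39, and the 13 of oocyte and maternal regulators a median of -2.64, with the Pumilio-family gene puf-5 at -4.39 ± 0.60 and the oocyte maturation gene oma-2 at -4.27 ± 0.57 after pos-1. The preparation medians of the yolk list were -5.29, -6.48, -5.23 and -4.54, lowest in preparation 2 and highest in preparation 4, as for ule-3 and ule-5. Within that list vit-5 was instead highest in preparation 1, at -5.60. The arrays of preparations 2 and 4 had the widest and narrowest spread (median absolute deviation 0.573 and 0.275). The part of spread in this order was not tested. The eggshell medians were -3.65, -4.01, -3.50 and -3.24, and the oocyte medians were -2.49, -2.52, -2.97 and -2.41, lowest in preparation 3. The part of oocyte and embryo content of the reference in the ule values was not tested. The vitellogenin genes vit-1, vit-3 and vit-4 had no named probe here.

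Of 13 measured genes that act in the uterus, its seam cell (utse) and the anchor cell, 0 passed on the low side and 3 on the high side, with a list median of 0.45. The shares over all genes and probes were 10.8% and 8.31%. Counts in so short a list were not tested against these shares, and nothing is read from them. The 3 were aff-1, whose fusion protein joins the anchor cell to the utse (1.41 ± 0.94), the SOX-family gene egl-13, needed for uterine cell fates (0.88 ± 0.54), and the fusion protein gene eff-1 (0.73 ± 0.37). None of these calls held throughout. aff-1 was lost without preparation 1, 2 or 3 (limma adjusted p from 0.0892 to 0.126), egl-13 without any 1 preparation (0.0622 to 0.135) and eff-1 without 2, 3 or 4 (0.107 to 0.138). The values of egl-13 were 1.56, 1.06, 0.46 and 0.42 in preparations 1 to 4, all above 0.

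Of 13 measured genes of the gonadal sheath and spermatheca, 2 passed on the low side and 1 on the high side, near the same shares over all genes and probes, with a median of -0.16. The low ones were the gap junction genes inx-8 (-2.22 ± 0.28) and inx-9 (-1.21 ± 0.22). The high one was fln-1, which encodes a filamin of the spermatheca (0.78 ± 0.30), and its call was lost without any 1 preparation (limma adjusted p from 0.0605 to 0.0807). Of 11 measured genes of the uv1 cells, which border the uterus at the vulva, and of the egg-laying muscles, 3 passed on the low side and 0 on the high side, beside the same 10.8% and 8.31%, with a median of -0.19. They were the tyrosine decarboxylase gene tdc-1 (-2.27 ± 0.49), the dense core vesicle gene ida-1 (-1.03 ± 0.37) and the neuropeptide gene nlp-7 (-0.81 ± 0.36). ida-1 was lost without preparation 1 or 3 (limma adjusted p = 0.0635 and 0.0554) and nlp-7 without 1, 2 or 3 (0.0767 to 0.107), and the 2 probes of nlp-7 averaged -0.30 and -1.32 as deposited. These genes are also used in other cells, so the lists do not measure the uterus alone. The uterus list was not drawn from genes of the finished adult uterus. Its median therefore does not show how transcripts of that tissue stood in L3. The collagen gene of the adult cuticle col-19 lay at -3.54 ± 0.81, and col-7 at 0.24 ± 0.38 did not pass.

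**Figure D4:**
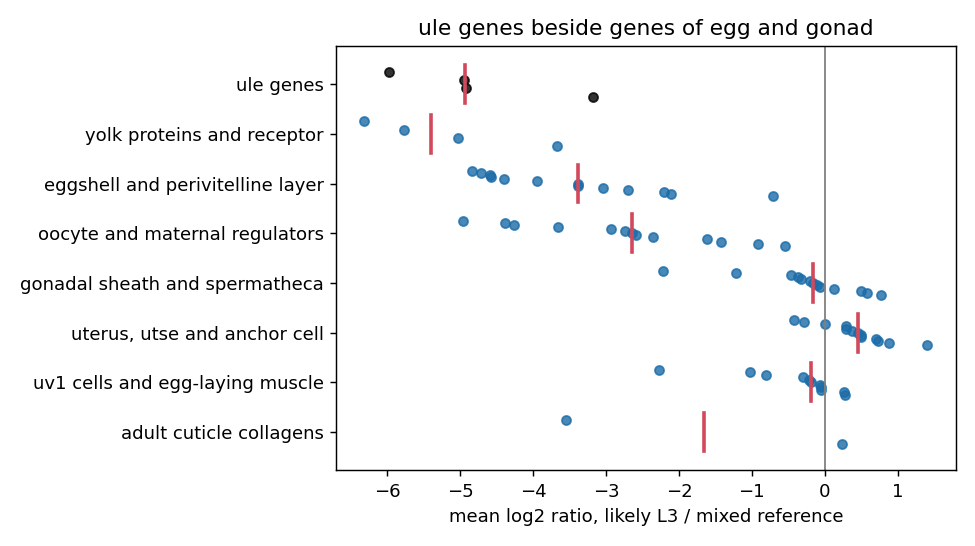
Mean log2 ratio (horizontal axis, likely L3 over mixed reference) of each measured gene, 1 point per gene, for the ule genes and 7 lists, with the list median as a red bar. The ule median of -4.93 lies between those of the yolk list (-5.40) and the eggshell list (-3.39). The list of uterus, utse and anchor cell, which does not stand for adult uterine tissue, has a median of 0.45.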

How the data were processed

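The authors deposited 1 log2 ratio per probe and array, without stating background correction, normalization, spot filter or genome build in the sources used here. Probes (21632) were named through the platform's annotation table: 16450 had 1 symbol, 247 several and 4935 none. Symbols of 16360 probes were updated by Entrez number to RefSeq WBcel235, which also gave gene order, chromosomes and the overlap of gene models. Coordinates are not printed, since the build of the probes is not given. Sequences were not used here. Arrays were centred on their medians and probes of a gene averaged. Values on 3 or more of the 4 arrays were required, which left 19943 genes and probes. Their mean ratios were tested against 0, two-sided, in limma 3.58.1 under R 4.3.3 (lmFit, eBayes) with Benjamini-Hochberg adjustment over all of them and a threshold of 0.05. The fit was tested on simulated data. Its p-values measure the spread between 4 preparations, which may be technical, and leave out that of the reference. A channel bias of a probe cannot be told apart from a difference between the RNAs.

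The genes named were the members, the 5 (ule-3) or 3 (others) genes of most similar values, those next in rank to ule-3 and the nearest measured gene on each side. Added to these were the 3 genes of each list with the largest absolute mean, vit-2, vit-5, vit-6, rme-2 and col-19. Other neighbours were named after their values were seen. A planned protein comparison was not made. Members, lists and tests were chosen with earlier results of these data known.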

Additional observations from a re-analysis of the deposited data

Results flagged for a closer look

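Among the 47 genes named, 2 had 1 preparation far from the other 3, by a gap between neighbouring values that exceeded Dixon's critical share of the whole range. Chance gives this in about 5% of groups. D1054.8, in the window around ule-3, had a gap of 0.868, with preparation 2 highest at 1.36 and the others between 0.99 and 1.04. prp-38, in the same window, had a gap of 0.857, with preparation 4 highest at -0.26 and the others between -0.82 and -0.74. No ule gene was past this limit.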

How the results depend on the processing

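The log2 ratio of each ule gene moved by less than its SD and kept its sign under all 13 alternatives: from -6.36 to -5.70 for ule-3, -5.21 to -4.69 for ule-5, -5.22 to -4.68 for ule-4 and -4.12 to -2.25 for ule-1. All 4 remained at least 2-fold lower. The mean of ule-1 was less than 8-fold lower without preparation 1 (-2.88) or 2 (-2.87) and in preparations 3 and 4 alone (-2.25). With arrays scaled to a common spread it was 7.99-fold lower. ule-1 missed the limma threshold without preparation 1 and in preparations 3 and 4 alone. In fits with as many arrays it passed without preparation 2, 3 or 4 (limma adjusted p from 0.00252 to 0.0443) and in preparations 1 and 2 alone (0.0066). Over all genes, 2149 were lower and 1657 higher. With 1 preparation left out, between 1004 and 1635 were lower and between 788 and 1085 higher. In preparations 1 and 2 alone 804 and 691 passed, and in 3 and 4 alone 978 and 716. The 36 lower genes of the lists fell to between 30 and 34 with 1 preparation left out, and to 29 and 30 in these pairs of preparations. The 4 higher genes of the lists fell to between 0 and 1 with 1 preparation left out, and to 1 and 1 in the same pairs. The 8 lower neighbours, a count added after seeing the data, fell to between 5 and 7 with 1 preparation left out and to 5 and 5 in the pairs. With the month in the array titles as a block, whose correlation was -0.12, all 4 ule genes passed. Each ratio already sets L3 against the reference on the same array, and with 1 group no other pairing was possible. The rounding of ratios to steps of 0.001 limits the lowest values, and signal over background was not analysed here.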

Other observations

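The 4 measured ule genes lie on 4 chromosomes that differ in their share of low genes. Of the named genes on chromosome X, where ule-5 and its run lie, 8.94% passed on the low side and 24 of 2237 were at least 8-fold lower. The shares past the threshold were 13.9% on chromosome IV, 13.8% on chromosome I and 10.9% on chromosome V. Around the unmeasured ule-2, 4 of 10 neighbours had a value. Y57G11B.5, 5 genes away, passed on the low side at -2.33 ± 0.71, and the nearest, irld-4, lay at 0.29 ± 0.14 and did not pass. lgc-51, 4 genes away from ule-1, had the widest spread of the measured neighbours (SD 2.51), with 4.63 in preparation 3 and no more than 0.16 in the others. Genes in this section were chosen after their values were seen.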
